A study of Mus musculus with 6 samples.

Results

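The messenger RNA of 40 genes of glycolysis and of the cellular response to low oxygen was compared between CD24- and CD24+ Mvt1 cells. Mvt1 is a mammary carcinoma cell line from FVB/N mice. Its cells were stained for the surface protein CD24 and sorted into a CD24- and a CD24+ population, and 3 plates of each were grown attached in medium with serum, with no further treatment in either group. The genes were listed by name, as glucose transporters, enzymes from hexokinase to pyruvate kinase, regulators of glycolysis, proteins of lactate and pyruvate handling, subunits and hydroxylases of the hypoxia-inducible factors, and hypoxia response genes. All 40 were found among the 14765 gene annotations of the data, and 38 had enough reads for the test.

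Glycolysis breaks glucose down to pyruvate in the cytosol, and many tumor cells run it fast and release the product as lactate even where oxygen is present. Low oxygen raises the same pathway through hypoxia-inducible factors, dimers of an oxygen-sensitive alpha subunit with ARNT. Prolyl hydroxylases mark the alpha subunit for degradation when oxygen is plentiful, and without that mark the dimer binds promoters and enhancers of glucose transporters, glycolytic enzymes and the hydroxylases themselves. The oxygen level of the cultures beyond the gas mix of the incubator was not among the measurements.

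A library held between 9046025 and 25692147 mapped reads, of which 71.8% to 74.3% were annotated to a gene. CD24+ replicate 1 was the shallowest and therefore carries the largest counting error. Levels are given as CPM, edgeR's library-size scaled count with gene reads alone as the total after TMM scaling, and fold changes are CD24+ over CD24- on the log2 scale, with the standard error (SE) of edgeR's quasi-likelihood fit. The gene of the sorted marker, Cd24a, stood at 12.1, 11.5 and 6.99 CPM in the CD24- libraries and at 73.3, 85.5 and 72.5 CPM in the CD24+ libraries. Of the marker genes of epithelial cells, Krt8, Krt18 and Krt19 had enough reads for the test and all 3 were lower in CD24+ cells, with a summed level of the list of 1847 to 2041 CPM against 759 to 902 CPM, while the defining markers Cdh1 and Epcam had 2 and 6 reads in all libraries together. Of 8 mesenchymal markers 7 were tested, 5 were higher in CD24+ cells and 1, Zeb1, was lower (mean level 122 against 94.1 CPM), and the list summed to 3734 to 4584 CPM in CD24- and 4363 to 5179 CPM in CD24+ libraries. Leukocyte markers summed to 46.7 to 80.5 CPM against 7.17 to 9.44 CPM, nearly all of it Cd68, with 2 reads of the defining marker Ptprc, and endothelial markers to at most 3.98 CPM. The part of these shifts in the results on glycolysis and hypoxia genes was not tested, and in such bulk samples fewer cells of a type and less RNA per cell cannot be told apart.

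Among the 38 tested genes, 18 passed an adjusted p of 0.05 in edgeR's quasi-likelihood test, which is 47.4% of them, where 46.1% of all 11125 tested genes did. Of the 18, 7 were higher in CD24+ cells (23.8% of all tested genes were higher) and 11 were lower (22.3% of all were lower). The share of called genes in the list was thus close to that of the transcriptome. Among the called genes, Ldhb and Car12 reached the minimum of reads only through the group in which they are higher. For 17 of the 38 (44.7%) the values of the groups did not overlap, a smaller share than the 57.3% of all tested genes, and this difference was not tested. Their median log2 fold change was -0.12, and that of all tested genes was 0.02. By role, 7 of the 15 tested glycolytic enzymes were called, all 7 lower. Of the 5 tested hypoxia-inducible factor subunits and hydroxylases 3 were called, all 3 higher. This contrast in direction between the roles was not tested. The enzymes Aldoc, Gpi1 and Tpi1 and the hydroxylase Egln3 lost their call under at least 1 alternative processing other than a fold minimum. CD24- replicate 3 had the lowest value of its group for 28 of the 38 genes, while it was lowest for 43.5% of all tested genes, and without it 21 of the 38 were called, 7 higher and 14 lower.

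**Figure D1:**
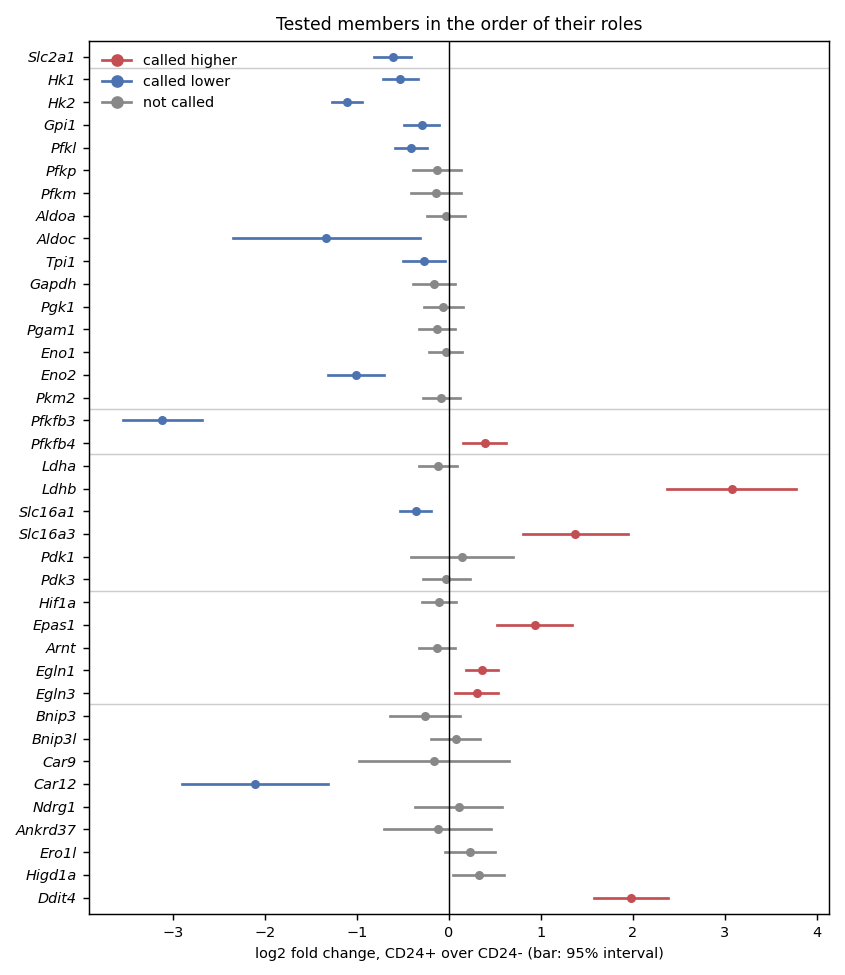
Log2 fold change of the 38 tested genes, CD24+ over CD24-, on the horizontal axis, with the 95% interval as a bar and 1 gene per line, ordered from glucose transporter through enzymes to hypoxia genes, with grey lines between roles. The 15 glycolytic enzymes all lie left of 0, and the ends of the range are Pfkfb3 at -3.12 and Ldhb at 3.07. Ldhb reached the minimum of reads for the test through the CD24+ libraries alone.

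Glucose entry came first in the order of the pathway. Slc2a1, which encodes the widely expressed glucose transporter GLUT1, had 467.0, 450.3 and 432.6 CPM in CD24- replicates 1 to 3 and 329.5, 280.1 and 274.6 CPM in CD24+ replicates 1 to 3. Every CD24+ library was below every CD24- library, with a log2 fold change of -0.61 (SE 0.09, edgeR adjusted p = 0.00032). Slc2a3, the gene of a transporter with high affinity for glucose, had 16, 9 and 17 reads in the CD24- and 0, 3 and 2 reads in the CD24+ libraries and was not tested by edgeR. These were all the reads that match its transcripts and no other gene. They made up 4.34% of the reads that match its transcripts, and most of the others, which match other genes as well, were placed in B2 repeats.

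Hexokinases, which trap glucose in the cell by phosphorylating it, were both lower in CD24+ cells. Hk2 stood at 278, 280.3 and 269 CPM in CD24- and at 121.0, 128 and 134 CPM in CD24+ libraries. The groups were far apart relative to their spread, and the level fell 2.16-fold (log2 fold change -1.11, SE 0.08, edgeR adjusted p = 1.5e-06). Hk1 fell less, from 380.3, 402.5 and 343.7 CPM to 249, 253 and 279 CPM, with a log2 fold change of -0.53 (SE 0.09, edgeR adjusted p = 0.00072). The log2 ratio of Hk2 to Hk1 reads within a library, which needs no scaling between libraries, was -0.44 ± 0.08 in CD24- and -1.03 ± 0.04 in CD24+ cells (SD, n = 3 each). It did not overlap between groups, with an exact permutation p of 0.1, the smallest that 3 libraries against 3 allow, and 0.171 after adjustment over 12 such pairs.

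The next steps turn glucose phosphate into a pair of triose phosphates. Gpi1, the isomerase, had 628, 646 and 545 CPM in CD24- against 488, 504 and 488 CPM in CD24+ libraries, a log2 fold change of -0.30 (SE 0.09, edgeR adjusted p = 0.016). This call was lost without CD24- replicate 1 or without CD24- replicate 2 (adjusted p 0.0035 to 0.085 over the 6 fits that each left out 1 library), and with every distinct sequence counted a single time (adjusted p = 0.082). Of the 3 phosphofructokinases, which commit the sugar to glycolysis, only Pfkl, the liver-type subunit, was called. Its levels were 179, 184.5 and 169.5 CPM against 138, 136 and 126 CPM, a log2 fold change of -0.42 (SE 0.08, edgeR adjusted p = 0.0014). Pfkp and Pfkm had log2 fold changes of -0.13 and -0.14, with 95% intervals of -0.39 to 0.13 and -0.42 to 0.13. That the subunits differ from each other in their change was not shown, as the log2 ratio of Pfkp to Pfkl was 0.16 ± 0.16 in CD24- and 0.46 ± 0.19 in CD24+ cells (SD, n = 3 each, exact permutation p = 0.2).

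Aldolase and triosephosphate isomerase follow. Aldoa, by far the more abundant aldolase gene here, had a log2 fold change of -0.03 with a 95% interval of -0.24 to 0.17. The brain-type gene Aldoc stood at 7.79, 9.57 and 2.82 CPM in CD24- and at 2.20, 1.47 and 4.14 CPM in CD24+ libraries, from 200 and 119 reads in all. Its groups overlapped, since CD24- replicate 3 was below CD24+ replicate 3. The log2 fold change was -1.33 (SE 0.46, edgeR adjusted p = 0.035), and the call was lost when CD24- replicate 1 or 2 or CD24+ replicate 1 or 2 was left out (adjusted p 0.0028 to 0.14 over the 6 such fits). It was also lost with every distinct sequence counted a single time (adjusted p = 0.095), and without CD24+ replicate 3 the log2 fold change was -1.99. Tpi1, the triosephosphate isomerase, had 920.2, 915 and 779 CPM against 799, 708 and 660.5 CPM, with a log2 fold change of -0.27 (SE 0.10) that was only just called (edgeR adjusted p = 0.048). Its call was lost without CD24- replicate 1 or 2 or CD24+ replicate 2 or 3 (adjusted p 0.015 to 0.17 over the 6 such fits), and with the replicate number as a block (adjusted p = 0.052, range over all alternatives 0.015 to 0.46). It was also lost with distinct sequences, the median coverage, all transcript-matched reads or thinned libraries.

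From glyceraldehyde phosphate onwards the pathway yields ATP. Of the 6 enzymes from here to pyruvate kinase, Eno2 was called. Gapdh had 177, 188 and 148 CPM in CD24- and 166, 149 and 143 CPM in CD24+ libraries. Its groups overlapped, and its log2 fold change was -0.17 (95% interval -0.40 to 0.06, edgeR adjusted p = 0.21). Without CD24- replicate 3 it was called lower (log2 fold change -0.26, adjusted p = 0.033). It was also called lower with every distinct sequence counted a single time (log2 fold change -0.89, edgeR adjusted p = 0.00023). Such a count is bounded by the number of positions that reads can take, and need not grow with depth. Nearly all Gapdh reads on the transcript used lay in its 3' part, where the log2 ratio of all reads was 0.12 and the groups overlapped. How far this bound moved the distinct count was not tested. Pgk1, Pgam1 and Eno1, the kinase, mutase and main enolase genes of the next steps, had log2 fold changes of -0.06, -0.13 and -0.04, with 95% intervals that reached no lower than -0.32 and no higher than 0.15. The neuronal-type enolase gene Eno2 was the called member of this stretch, at 26.6, 25.1 and 19.6 CPM in CD24- and 11.5, 12.1 and 11.7 CPM in CD24+ libraries. No CD24+ library came near a CD24- library, and the log2 fold change was -1.01 (SE 0.14, edgeR adjusted p = 0.0002). It was -0.26 with the median coverage of the gene and a regularizer of 10.

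The levels of some of these enzymes rest on few of their reads. When every deposited 47-nt sequence was matched to GENCODE M21 transcripts, only 3.02% of the 377767 reads that match Gapdh transcripts carried the Gapdh annotation, and 96.98% had been placed at other loci, among them annotations such as Fam168a and B930007M17Rik and positions with no annotation. For Eno1 the share was 3.10% of 277455 reads, and its annotated reads lay only within mm9 chr4:149611320-149611456. With all matching reads counted wherever they were placed, an alternative chosen after seeing the data, the log2 fold change was 0.05 for Gapdh (SE 0.10, edgeR adjusted p = 0.761) and -0.01 for Eno1 (SE 0.09, edgeR adjusted p = 0.949). Reads of such a count may belong to near-identical copies, so neither value settles the level of the single gene. The 11 genes called lower kept between 77.2% (Gpi1) and 100% (Car12) of their matching reads, with Hk1 at 80.8%, Pfkfb3 at 88.6% and Hk2 at 99.3%. Epas1 and Ero1l kept 56.3% and 55.7%, with most of the remainder at their own locus without the gene's annotation.

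**Figure D2:**
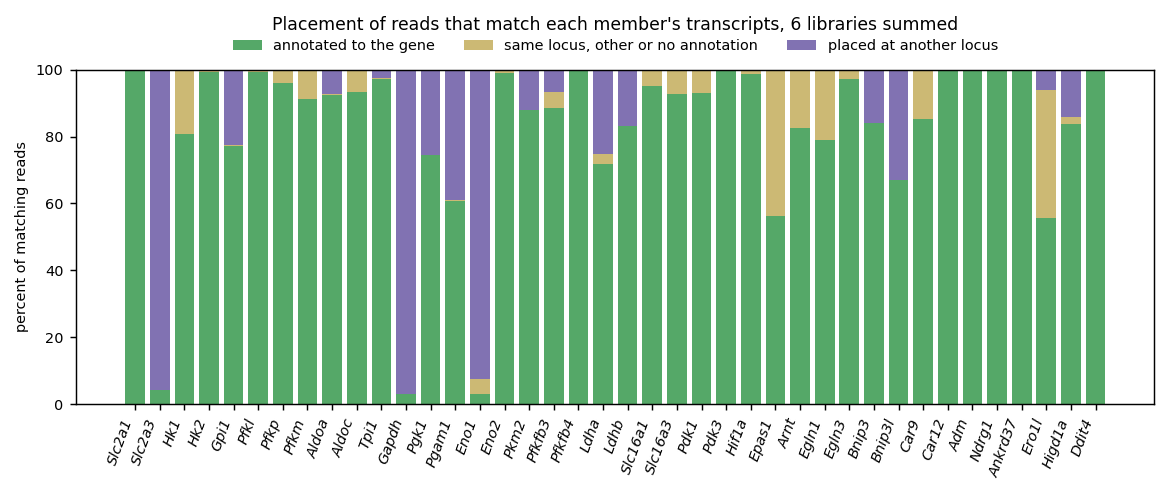
Percent of the reads matching each gene's transcripts, 6 libraries summed, that carry the gene's annotation, lie within 20000 nt of its reads under another or no annotation, or were placed elsewhere. Slc2a3, Gapdh and Eno1 keep 4.34%, 3.02% and 3.10% under their own annotation. The reads of Slc2a3 placed elsewhere match other genes as well.

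Pyruvate kinase, the last enzyme, had the highest level of the 40 genes by annotated reads, also per kilobase of transcript. The gene is annotated as Pkm2, its former symbol, and had 5721, 5698 and 5967 CPM in CD24- and 5378, 5912 and 5112 CPM in CD24+ libraries. The groups overlapped, and the log2 fold change was -0.08 (95% interval -0.28 to 0.12, edgeR adjusted p = 0.47). With the median coverage of the gene and the regularizer it was called lower. Per kilobase the level was 2254 CPM in CD24- and 2172 CPM in CD24+ cells on average, against 972 and 899 CPM per kilobase for Ldha. All 15 enzymes together took 1.16% ± 0.02 of the gene reads of a CD24- library and 1.03% ± 0.06 of those of a CD24+ library (SD, n = 3 each). Pkm2 alone made up 0.584% and 0.542%. With all reads that match the transcripts of the 15 enzymes, wherever they were placed, the shares were 1.61% ± 0.06 and 1.51% ± 0.05 of the mapped reads (SD, n = 3 each), and here the groups overlapped, with CD24- replicate 3 at 1.55% and CD24+ replicate 2 at 1.56%.

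The pyruvate kinase gene is spliced to carry one of a pair of alternative exons, of which M1 is typical of muscle and brain and M2 of embryonic, proliferating and tumor cells. The exons are shown because reads of spliced RNA within them tell the isoforms apart. None of the sequences found within them matches this gene alone among the GENCODE genes, but all their reads carried the Pkm2 annotation. In GRCm38 they lie on the plus strand at chr9:59675029-59675195 (M1) and chr9:59675568-59675734 (M2). They are 167 nt each and identical at 103 positions, and capitals mark the 64 positions at which they differ:
Pkm exon M1: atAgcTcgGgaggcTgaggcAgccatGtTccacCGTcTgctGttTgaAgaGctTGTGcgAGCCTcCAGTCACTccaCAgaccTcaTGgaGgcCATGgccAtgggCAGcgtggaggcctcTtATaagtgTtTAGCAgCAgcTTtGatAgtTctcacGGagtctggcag
Pkm exon M2: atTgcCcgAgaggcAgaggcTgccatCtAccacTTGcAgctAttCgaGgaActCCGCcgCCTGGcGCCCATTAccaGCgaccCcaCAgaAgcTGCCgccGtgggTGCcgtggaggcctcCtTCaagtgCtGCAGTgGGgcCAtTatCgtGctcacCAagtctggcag
The M1 exon took 124 of 2570 reads in CD24- replicate 1, 134 of 2610 in CD24- replicate 2 and 145 of 2182 in CD24- replicate 3. It took 57 of 1606, 198 of 4655 and 225 of 4508 in CD24+ replicates 1 to 3. The M1 share was therefore 4.83% (95% Clopper-Pearson interval 4.03 to 5.73), 5.13% (4.32 to 6.05) and 6.65% (5.64 to 7.77) in CD24- libraries. In CD24+ libraries it was 3.55% (2.70 to 4.57), 4.25% (3.69 to 4.87) and 4.99% (4.37 to 5.67), and these intervals cover counting error only. M2 was the prevailing form in every library. Reads within an exon can also come from RNA not yet spliced, and reads over junctions were not used. Of the reads annotated to the gene, 95.1% (CD24- replicate 3) to 98.3% (CD24+ replicate 1) matched its transcripts. These libraries also had the highest and the lowest M1 share, and the part of unspliced RNA in the shares was not tested. The difference between groups, -1.27 percentage points, was not beyond the spread of the libraries (exact permutation p = 0.2), and it was -0.71 percentage points without CD24- replicate 3.

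**Figure D3:**
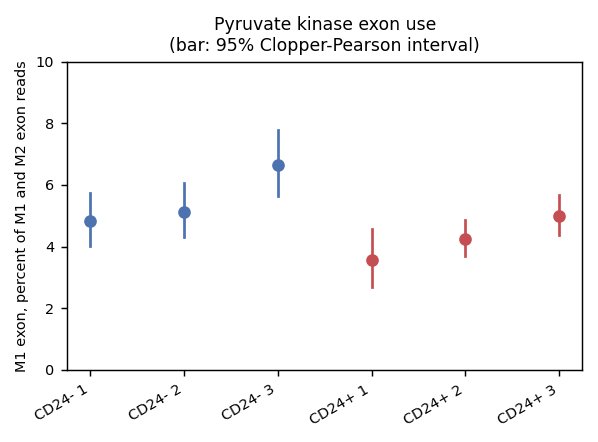
Share of M1 exon reads among reads within the M1 or M2 exon of the pyruvate kinase gene, in percent, 1 point per library with its 95% Clopper-Pearson interval. All 6 shares lie between 3.55% and 6.65%, and CD24+ replicate 3 at 4.99% lies above CD24- replicate 1 at 4.83%.

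The largest decrease among the tested genes of the list was that of Pfkfb3, whose enzyme makes fructose bisphosphate of the regulatory kind, a strong activator of phosphofructokinase. It stood at 38.6, 36.3 and 54.0 CPM in CD24- and at 5.98, 5.19 and 4.14 CPM in CD24+ libraries. The lowest CD24- library was far above the highest CD24+ library, and the fitted level was 8.68-fold lower in CD24+ cells (log2 fold change -3.12, SE 0.19, edgeR adjusted p = 8.1e-07). With the median coverage of a gene and a regularizer of 10 added to each value, which by construction shrinks the change of genes with low values, the log2 fold change was -0.53 and still called. The decrease was alike along the transcript, with log2 ratios of -2.81, -3.06 and -2.92 in its 5' part, its middle and its 3' part, each of the same length. Pfkfb4, which encodes another enzyme of this family, was higher in CD24+ cells, with 18.7, 20.3 and 20.3 CPM against 26.6, 24.5 and 26.7 CPM. Its log2 fold change was 0.39 (SE 0.10, edgeR adjusted p = 0.012), and the call was lost without CD24- replicate 1 or CD24+ replicate 3 (adjusted p 0.013 to 0.061 over the 6 fits that each left out 1 library). It was also lost with the median coverage and the regularizer (log2 fold change 0.07, adjusted p = 0.35, range over all alternatives 0.0075 to 0.35). Pfkfb3 reads thus outnumbered Pfkfb4 reads in each CD24- library and were outnumbered by them in each CD24+ library. The log2 ratio was 1.10 ± 0.29 in CD24- and -2.35 ± 0.29 in CD24+ cells (SD, n = 3 each, exact permutation p = 0.1, adjusted 0.171). Per kilobase the ratio of their reads, summed over the libraries of a group, was 1.76 in CD24- and 0.152 in CD24+ cells.

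Lactate dehydrogenase converts pyruvate to lactate and back. Ldha, the main subunit gene of glycolytic tumors, had 1828, 1823 and 1690 CPM in CD24- and 1710, 1747 and 1469 CPM in CD24+ libraries. The groups overlapped, and the log2 fold change was -0.12 (95% interval -0.32 to 0.09, edgeR adjusted p = 0.32). Ldhb, whose subunit is typical of heart and other oxidative tissues, had only 5, 9 and 4 reads in the CD24- libraries but 25, 101 and 111 in the CD24+ libraries. Scaled to CPM this was 0.526, 0.853 and 0.451 against 3.93, 5.70 and 5.81. All CD24+ libraries were higher, with a log2 fold change of 3.07 (SE 0.31, edgeR adjusted p = 2.5e-05), the largest increase of the list, and it was 3.82 with all libraries thinned to the depth of the shallowest. Ldhb reached the minimum of reads for the test through the CD24+ libraries alone. Its call therefore carries less weight than that of a gene that reaches it in both groups. The level stayed far below that of Ldha, whose summed reads per kilobase were 2161 times those of Ldhb in CD24- and 216 times in CD24+ cells.

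Monocarboxylate transporters carry lactate across the membrane. Slc16a1, the gene of MCT1, fell from 513, 508 and 489.9 CPM to 397, 369.8 and 409 CPM, with a log2 fold change of -0.36 (SE 0.08, edgeR adjusted p = 0.0032). This call was lost with every distinct sequence counted a single time (edgeR adjusted p = 0.13). Slc16a3, the gene of the lactate exporter MCT4, rose from 3.79, 4.74 and 3.38 CPM to 14.3, 7.57 and 10.2 CPM. Its lowest CD24+ library was above its highest CD24- library, and the log2 fold change was 1.37 (SE 0.26, edgeR adjusted p = 0.0015). The log2 ratio of Slc16a3 to Slc16a1 reads moved from -6.98 ± 0.22 to -5.24 ± 0.42 (SD, n = 3 each, exact permutation p = 0.1, adjusted 0.171). Per kilobase, with the reads of a group summed, Slc16a3 had 0.0241 of the Slc16a1 reads in the CD24+ group, against 0.00686 in the CD24- group. The length used for Slc16a3 includes the part without reads. The kinase genes Pdk1 and Pdk3, whose products inhibit pyruvate dehydrogenase in the mitochondria, had log2 fold changes of 0.14 and -0.03, with 95% intervals of -0.42 to 0.70 and -0.28 to 0.23.

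**Figure D4:**
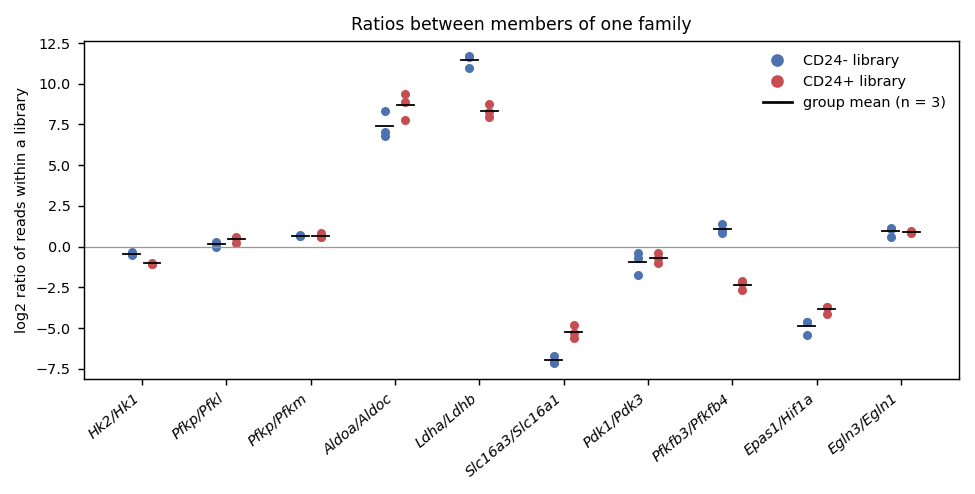
Log2 ratio of the reads of 2 members of a family within each library, for the 10 pairs in which both genes kept enough of their reads, with group means as lines. The ratios of Pfkfb3 to Pfkfb4, Ldha to Ldhb, Hk2 to Hk1, Slc16a3 to Slc16a1 and Epas1 to Hif1a do not overlap between the 3 CD24- and the 3 CD24+ libraries.

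Of the hypoxia-inducible factors, Hif1a, the gene of the widely expressed alpha subunit, had 347, 334 and 369.8 CPM in CD24- and 347, 303 and 327 CPM in CD24+ libraries. The groups overlapped, with a log2 fold change of -0.11 (95% interval -0.29 to 0.08, edgeR adjusted p = 0.32). This is a measure of the transcript alone, and the alpha subunit is regulated mainly as a protein. Epas1, which encodes the alternative subunit HIF-2alpha, rose from 13.8, 13.7 and 8.45 CPM to 19.5, 23.3 and 25.5 CPM, a log2 fold change of 0.93 (SE 0.18, edgeR adjusted p = 0.0021), or 0.22 with the median coverage and the regularizer. Every CD24+ library exceeded every CD24- library. The log2 ratio of Epas1 to Hif1a reads was -4.90 ± 0.47 in CD24- and -3.84 ± 0.26 in CD24+ cells (SD, n = 3 each, exact permutation p = 0.1, adjusted 0.171). Per kilobase Epas1 had 0.0294 and 0.0633 of the Hif1a reads, from counts that hold 56.3% of the reads matching Epas1 and 98.8% of those matching Hif1a. Arnt, the shared partner, had a log2 fold change of -0.13 with a 95% interval of -0.32 to 0.07.

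Both prolyl hydroxylase genes of the list were higher in CD24+ cells. Egln2, a prolyl hydroxylase gene outside the list, was not called, and its groups overlapped. Its log2 fold change was 0.06 (95% interval -0.16 to 0.28, edgeR adjusted p = 0.62). Egln1, the gene of PHD2, the main oxygen sensor of the pathway, had 67.8, 70.5 and 74.7 CPM in CD24- and 91.6, 92.7 and 89.3 CPM in CD24+ libraries, a log2 fold change of 0.36 (SE 0.08, edgeR adjusted p = 0.0036). Its increase was uneven along the transcript. The log2 ratio was -0.09 in the 5' part, where groups overlapped, 0.24 in the middle and 0.76 in the 3' part. From its pooled reads the 3' part gained 0.77 on the 5' part, more than in 99.1% of the 5607 genes with at least 100 reads in both parts in each group, whose median gain was 0.06. Arnt and Bnip3l gained 0.59 and 0.52 in the same way, above 98.0% and 97.4% of those genes, while Ddit4 and Hk2 gained -0.11 and 0.04. Whether other transcript ends or the evenness of coverage moved these values was not tested. Egln3, the gene of PHD3 and a known hypoxia target, had 148, 149 and 113.5 CPM against 162, 170.2 and 173 CPM. Its log2 fold change of 0.30 (SE 0.11, edgeR adjusted p = 0.042) kept its call under the fewest alternatives of the 18 called genes. It was called under 7 of 18 alternatives and lost without any 1 of CD24- replicates 1 and 3 and CD24+ replicates 1, 2 and 3 (adjusted p 0.039 to 0.13 over the 6 such fits), and without CD24- replicate 3 the log2 fold change was 0.18. It was also lost with library totals in place of TMM, with a filter of 5 CPM, with distinct sequences, with the median coverage and with all transcript-matched reads or those of a single protein-coding gene (adjusted p 0.026 to 0.20 over all 18).

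Among 10 further hypoxia response genes 9 were tested, 1 was higher and 1 was lower. That is 22.2% called, where 46.1% of all tested genes were, and this difference was not tested. Ddit4, which encodes REDD1, an inhibitor of mTORC1 induced by low oxygen and other stresses, had 81.5, 74.9 and 49.1 CPM in CD24- and 303, 219 and 292 CPM in CD24+ libraries. The lowest CD24+ value was far above the highest CD24- value, and the level rose 3.94-fold (log2 fold change 1.98, SE 0.18, edgeR adjusted p = 1.2e-05). With every distinct sequence counted a single time the log2 fold change was 1.20. The rise was even along the transcript, at 2.02, 1.96 and 1.95 in its 5' part, middle and 3' part. Car12, a membrane carbonic anhydrase, fell from 26, 42 and 19 reads to 2, 14 and 14 reads, or from 2.74, 3.98 and 2.14 CPM to 0.315, 0.790 and 0.733 CPM. All CD24+ libraries were lower, with a log2 fold change of -2.11 (SE 0.36, edgeR adjusted p = 0.00081). Car12 reached the minimum of reads for the test through the CD24- libraries alone, so the same limit holds as for Ldhb.

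The other genes of that group did not pass the test. Car9, the carbonic anhydrase most used as a hypoxia marker, had 32 annotated reads in CD24- and 43 in CD24+ libraries, of which only 35 match its transcripts. Its level was at most 1.58 CPM in any library, with a 95% interval of the log2 fold change of -0.98 to 0.66. Adm, the gene of adrenomedullin, had 5 reads in all 6 libraries, spread over both groups, and was not tested. The mitophagy receptor genes Bnip3 and Bnip3l had log2 fold changes of -0.26 and 0.07, with 95% intervals of -0.65 to 0.12 and -0.20 to 0.34. Ndrg1 and Ankrd37 stood at 0.11 and -0.12, with intervals of -0.37 to 0.58 and -0.71 to 0.46. Ero1l, an oxidase of the endoplasmic reticulum, and Higd1a, a mitochondrial protein gene, stood at 0.23 and 0.32, with intervals of -0.04 to 0.50 and 0.04 to 0.60 and adjusted p of 0.15 and 0.059 in edgeR.

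**Figure D5:**
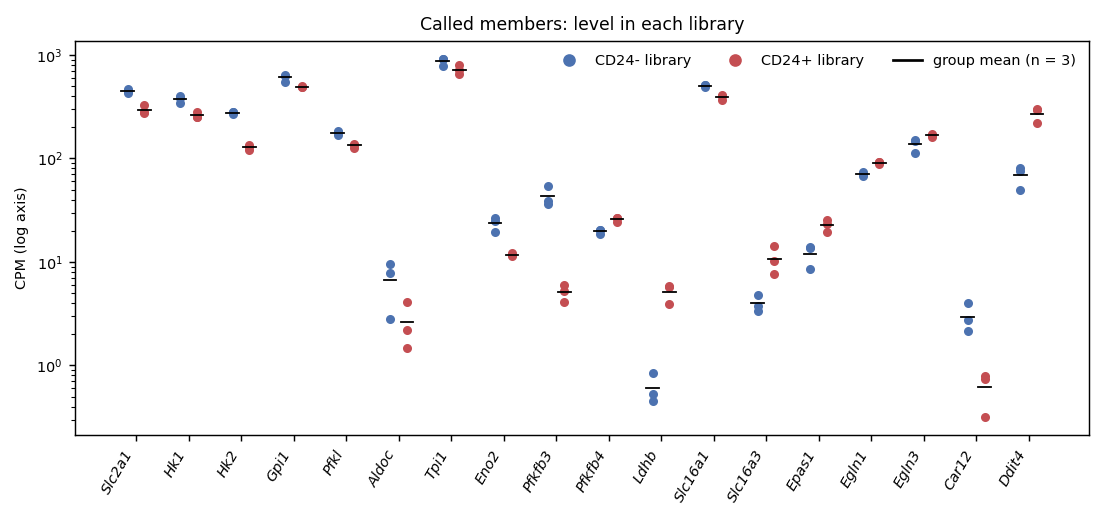
Level of the 18 called genes in CPM on a log axis, 1 point per library (CD24- blue, CD24+ red) with the group mean as a line. The 2 groups overlap for Aldoc, whose levels run from 1.47 to 9.57 CPM, and for Tpi1, and for none of the other called genes.

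Hypoxia-inducible factors bind the core letters ACGTG or GCGTG, and these were searched on both strands of the RefSeq promoters of the genes, 250 bases before to 50 bases after each start (GRCm38.p6). A palindromic CACGTG matches on both strands and counts as 2. Of the 40 genes 36 were in the table, and 32 of them (88.9%) held a match in at least 1 promoter, whereas 46.7% of all 27025 genes in the table and 43.8% of all 32851 promoters did. This difference was not tested. The 40 genes were chosen as genes of glycolysis and hypoxia, whereas all genes of the table were counted whether or not they had reads in these cells. All 6 genes called higher that were in the table held a match, and 7 of the 11 called lower did. The exceptions among the latter were Gpi1, Tpi1, Eno2 and Car12. No other gene of the list in the table lacked a match, so all those that were not called or not tested held one too. The promoters of Ddit4 (higher) and of Pfkfb3 and Hk2 (lower) are shown as examples of genes that hold matches and changed in either direction, chosen after their values were seen, with the matches of either strand in capitals. Ldhb rose more than Ddit4, and Car12, which holds no match, fell more than Hk2. They lie on the minus strand at chr10:59951721-59952020 (Ddit4), chr2:11553880-11554179 and chr2:11502041-11502340 (Pfkfb3, starts 1 and 2) and chr6:82774405-82774704 (Hk2):
Ddit4: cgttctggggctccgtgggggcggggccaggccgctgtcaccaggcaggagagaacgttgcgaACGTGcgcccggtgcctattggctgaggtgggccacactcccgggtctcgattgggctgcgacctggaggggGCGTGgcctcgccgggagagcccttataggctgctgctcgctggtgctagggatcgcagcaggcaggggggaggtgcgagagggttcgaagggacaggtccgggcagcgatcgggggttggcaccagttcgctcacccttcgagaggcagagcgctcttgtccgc
Pfkfb3, start 1: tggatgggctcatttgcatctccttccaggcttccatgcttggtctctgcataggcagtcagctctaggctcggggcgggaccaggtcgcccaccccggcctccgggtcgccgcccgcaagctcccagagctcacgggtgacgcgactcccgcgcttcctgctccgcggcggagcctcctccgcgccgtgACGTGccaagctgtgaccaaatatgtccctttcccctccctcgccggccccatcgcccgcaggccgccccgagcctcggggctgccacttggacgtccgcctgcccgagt
Pfkfb3, start 2: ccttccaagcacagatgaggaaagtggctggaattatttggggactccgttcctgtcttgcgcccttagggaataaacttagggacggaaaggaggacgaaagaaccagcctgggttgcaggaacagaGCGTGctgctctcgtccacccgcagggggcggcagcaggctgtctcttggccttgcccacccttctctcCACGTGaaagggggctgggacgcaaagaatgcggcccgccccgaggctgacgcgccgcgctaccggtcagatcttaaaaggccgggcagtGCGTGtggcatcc
Hk2: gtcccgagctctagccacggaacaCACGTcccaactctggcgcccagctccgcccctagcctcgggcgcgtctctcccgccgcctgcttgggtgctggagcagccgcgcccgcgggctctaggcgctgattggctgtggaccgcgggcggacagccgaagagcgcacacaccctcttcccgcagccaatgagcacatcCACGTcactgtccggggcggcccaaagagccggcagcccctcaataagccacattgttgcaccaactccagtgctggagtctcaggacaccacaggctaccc
Ddit4 held 2 matches, the promoters of Pfkfb3 1 and 4, and Hk2 2. As these genes were chosen for holding matches and for their changes, the counts do not bear on the direction of change. A match in the sequence does not show that a factor was bound.

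The neighbouring pathways were read from 6 further lists of 135 genes, of which 111 were tested, 28 were higher and 26 were lower. That is 48.6% called, near the 46.1% of all tested genes, of which 23.8% were higher and 22.3% lower, and no list was tested against other genes. The list of other genes of sugar uptake and glycolysis also held genes of related name or function. Of its 18 tested genes 2 were higher and 7 lower, with Pgam5 and Enoph1 among the 7. Slc2a6, a glucose transporter of the same family, rose from 6.31, 4.55 and 3.27 CPM to 14.8, 10.2 and 19.3 CPM (log2 fold change 1.65, edgeR adjusted p = 0.0009), and Galm, the galactose mutarotase, fell from 25.2, 23.6 and 26.7 CPM to 6.92, 6.38 and 6.23 CPM (-1.96, adjusted p = 1e-06). Of 22 tested genes of pyruvate use, mitochondrial pyruvate entry and the malate and glycerol phosphate shuttles 6 were higher and 4 lower. Pcx, which carboxylates pyruvate to oxaloacetate, rose by 1.23 on the log2 scale (SE 0.12, edgeR adjusted p = 1.9e-05), and Ldhd, a D-lactate dehydrogenase, fell by 1.77 (SE 0.20, adjusted p = 5.8e-05).

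In the pentose phosphate pathway, which branches off after hexokinase and supplies NADPH and ribose, 5 of 10 tested genes were higher and 2 lower, beside 23.8% and 22.3% of all tested genes. G6pdx, its first enzyme, had 185, 184 and 163 CPM in CD24- and 220.4, 247 and 240.2 CPM in CD24+ libraries (log2 fold change 0.41, SE 0.08, edgeR adjusted p = 0.0026), and Rpia fell by 0.41 (SE 0.11, adjusted p = 0.015). Of 10 tested genes of gluconeogenesis and glycogen 4 were higher and 2 lower, beside the same shares of all genes. Pck2, the mitochondrial phosphoenolpyruvate carboxykinase, rose from 82.4, 83.7 and 86.7 CPM to 357, 259 and 311 CPM (log2 fold change 1.87, SE 0.11, edgeR adjusted p = 7.4e-07). Fbp2, the muscle-type fructose bisphosphatase, had 145, 198 and 39 reads in the CD24- libraries and 0, 1 and 1 in the CD24+ libraries.

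Of 18 tested regulators of the hypoxia-inducible factors 4 were higher and 2 lower, or 33.3% called beside 46.1% of all tested genes, a difference that was not tested. The ubiquitin ligase gene Siah2, whose product acts on prolyl hydroxylases, rose by 1.06 on the log2 scale (SE 0.15, edgeR adjusted p = 0.00026), and the coactivator gene Crebbp fell by 0.45 (SE 0.12, adjusted p = 0.012). Of 33 tested further hypoxia response genes 7 were higher and 9 lower, or 48.5% called, near the share of all genes, with a median log2 fold change of -0.08. Lox, the gene of lysyl oxidase, which cross-links collagen, rose from 2.95, 3.60 and 4.06 CPM to 35.4, 56.6 and 47.1 CPM (log2 fold change 3.73, SE 0.21, edgeR adjusted p = 4e-07). The early response gene Ier3 fell from 248, 240.5 and 233 CPM to 108, 93.7 and 88.5 CPM (log2 fold change -1.32, SE 0.09, adjusted p = 1.5e-06).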

How the data were processed

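The authors sequenced messenger RNA of 3 plates of each sorted group, trimmed the reads to 47 nt, collapsed identical ones, mapped them by exact match (mm9, per the submitters' processing notes) and gave each sequence of a library 1 annotation. Over all libraries together, and without regard to strand, 65163 sequences (2244338 reads) carried more than 1 annotation. Each read was counted under the annotation deposited with it. They deposited, for every mapped sequence, the raw count of reads per library, neither normalized nor pooled. Which tool mapped them, and from where the annotations come, is not given in the sources used here. Reads over exon junctions mostly find no exact match, and genes that overlap cannot be separated because strand was not kept. No independent sorts are described, so p-values measure the spread between plates. That spread was uneven: the chi-square per degree of freedom between libraries was 1.74 for CD24- replicates 1 and 2 and 9.81 to 16.0 for the other pairs within a group.

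Counts as deposited were added up for each of the 16024 annotations, 14765 of them genes. Reads of repeats (7.56% to 10.2% of a library), of small or noncoding RNA (0.355% to 0.468%) and without annotation (16.9% to 20.2%) were left out of totals and tests. Genes that passed filterByExpr were tested with edgeR 4.0.16 in R 4.3.3 (TMM, quasi-likelihood F test, Benjamini-Hochberg over all genes tested, threshold 0.05). Ratios within a library, with 0.5 added to each count, and exon shares were compared by two-sided exact permutation tests. Sequences were matched to GENCODE M21 (GRCm38), and no coordinates were converted between builds. The genes, the further lists and the tests were chosen with earlier results of these data known. Named with values are, per role, up to 3 called genes with the largest increase and 3 with the largest decrease, Pkm2, Hif1a, Gapdh, Ldha, Slc2a1 and Cd24a. The other called genes, Hk1, Gpi1, Pfkl and Tpi1, were added after their values were seen. Named also are per further list the called gene of at least 5 CPM with the largest change each way. Alternatives were DESeq2 1.42.0, other scalings and filters, other ways to count reads, the median coverage of a gene (limma 3.58.1), a fold minimum, thinning, the replicate number as a block and each library left out. On simulated counts for this comparison, 53.7% of 67 genes changed 1.5-fold, 95.5% of 67 changed 2-fold and 100% of 66 changed 4-fold were recovered among 11030 genes, and 0.0923% of the unchanged were called. The simulation gave all genes the same spread and changed only these genes, all with a mean of at least 5 CPM. In the data the spread was uneven and far more genes were called, so these rates need not hold there.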

Additional observations from a re-analysis of the deposited data

How the results depend on the processing

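Between 13 and 21 of the 40 genes were called under the alternatives other than the fold minimum, against 18, with 13 to 21 when 1 library was left out. With a minimum change of 1.5-fold, 10 were called (4 higher, 6 lower), 24 of the further lists and 2717 of all genes, against 54 and 5130. With the median coverage of each gene and a regularizer of 10, 35 of the further lists and 2779 of all genes were called, from fewer genes tested (7984 against 11125). The study describes such a measure and ratios of it, but no test. The calls given here are those of limma, with coverage taken over a single GENCODE transcript per gene. The fold minimum aside, 12 of the 18 called genes kept their call under every alternative that gave a value, and Aldoc, Gpi1, Tpi1, Pfkfb4, Egln3 and Slc16a1 lost it under at least 1. Among these alternatives Slc16a1 lost its call only when every distinct sequence was counted a single time (adjusted p = 0.13, range over its alternatives 3.7e-05 to 0.13), a count in which Gapdh stood at -0.89 (adjusted p = 0.00023). Gapdh turned to 0.0453 when all reads matching its transcripts were counted, and Pkm2 was called lower by the median coverage (-0.33, adjusted p = 0.00018), and the cause was not tested. DESeq2 called 19 of the 40. Same-numbered libraries did not deviate together (correlations 0.01, -0.28 and -0.33). These are deviations from means of 3 libraries with uneven spread, so they cannot exclude that libraries of the same number share a batch. With the replicate number as a block 17 of the 40 were called, and 4493 of all genes, and among the named genes only Tpi1 lost its call. Depth limits genes such as Adm, Car9 and Slc2a3, with under 100 reads in all.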
